A study of Danio rerio with 12 samples.

Results

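The comparison described here set 4 pools of zebrafish embryos kept in empagliflozin against 4 pools kept in DMSO, 8 of the 12 libraries of the study, and measured 14134 genes in each. The embryos of both groups were healthy, GFP-positive and out of the chorion; the labels name neither the transgene nor the strain. The empagliflozin pools stood in 50 µM of the compound, and the DMSO pools in its solvent, from 23 to 27 hours post-fertilization. Each pool held 5 whole embryos. The 4 canagliflozin pools (50 µM, same hours) entered the level limit below, the shared estimate of spread and the fits that left out 1 library. A few of their values are given near the end. Genes were included by level alone: 11964 genes averaged at least 1 CPM (the reads of a gene as a share of its library, scaled by the authors so that libraries compare) over the 12 libraries and were tested, and 2170 were set aside. The gene just inside that limit, LOC553228, averaged 0.851 CPM with empagliflozin and 1.16 CPM with DMSO, and the gene just outside, zgc:112965, averaged 0.840 and 1.43 CPM.

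Empagliflozin inhibits SGLT2, the sodium-coupled glucose carrier encoded by slc5a2, which in mammals recovers filtered glucose in the kidney tubule. At the stage sampled here the embryo has a beating heart, moving trunk muscle, forming eyes, brain and kidney tubules, and still feeds from its yolk. A whole-embryo library adds up all of these tissues, so that fewer cells of a type and less RNA per cell cannot be told apart. slc5a2 itself was below the 1 CPM limit, with 0, 0, 0.368 and 0.0502 CPM in the empagliflozin pools and 0.292, 0.168, 0.310 and 0.0417 CPM in the DMSO pools. It was looked up because it encodes the drug's target, and most of these values lie near or under the 3 reads (0.109 to 0.175 CPM) that a count of 0 allows in these 8 libraries, a limit that covers counting error only.

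The 8 libraries held 16684720 to 27842375 reads. Markers of muscle (actc1b, mylpfa), heart (myl7, vmhc), blood (hbae3, hbbe3), epidermis (krt4, cyt1), vessels (kdrl, cdh5), lens (cryba2b, crygm2d3) and yolk layer (tfa, apoa2) were present in all 8, the lowest at 24.7 CPM. One DMSO library, pool 4, stood apart from the other 3 and toward empagliflozin. On the main axis of variation among the 8 libraries, which held 45.6% of the variance, the empagliflozin pools scored 10.5 to 13.9, DMSO pool 4 scored 3.01 and DMSO pools 1 to 3 scored -22.5 to -15.3. In 59.25% of the called genes that were higher with empagliflozin, and in 49.9% of those that were lower, DMSO pool 4 lay nearer to the empagliflozin mean than to the mean of the other DMSO pools. Its part in the results was not tested; with it left out, all tested genes together gave 1612 higher and 1421 lower calls.

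Of 11964 genes, 822 were higher with empagliflozin (6.87%) and 767 were lower (6.41%) at an adjusted p under 0.05 (limma, Benjamini-Hochberg over all tested genes), 13.3% in all. In 2281 genes (19.1%) every empagliflozin pool lay on the same side of every DMSO pool. Among the 1589 called genes that share was 79.2%. The changes were small. The median size was 0.40 on the log2(CPM + 1) scale among higher genes and 0.37 among lower ones, that is 1.32-fold and 1.295-fold, and 111 higher and 62 lower genes reached 1.5-fold. Calls were more frequent among abundant genes: 20.6% of the 2991 most abundant genes were called, 330 higher and 285 lower, against 5.38% of the 2991 least abundant, 87 higher and 74 lower. Leaving out any of the other 7 compared pools cut the calls, to between 146 and 386 higher and between 122 and 384 lower, and leaving out DMSO pool 3 gave the fewest. Counts of most gene groups below are given beside those with 1 library left out, in part as ranges over the 12 fits that each left out 1 library. Group counts without such values rest on the fit with all libraries, and whether they hold in the others is not shown.

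**Figure D1:**
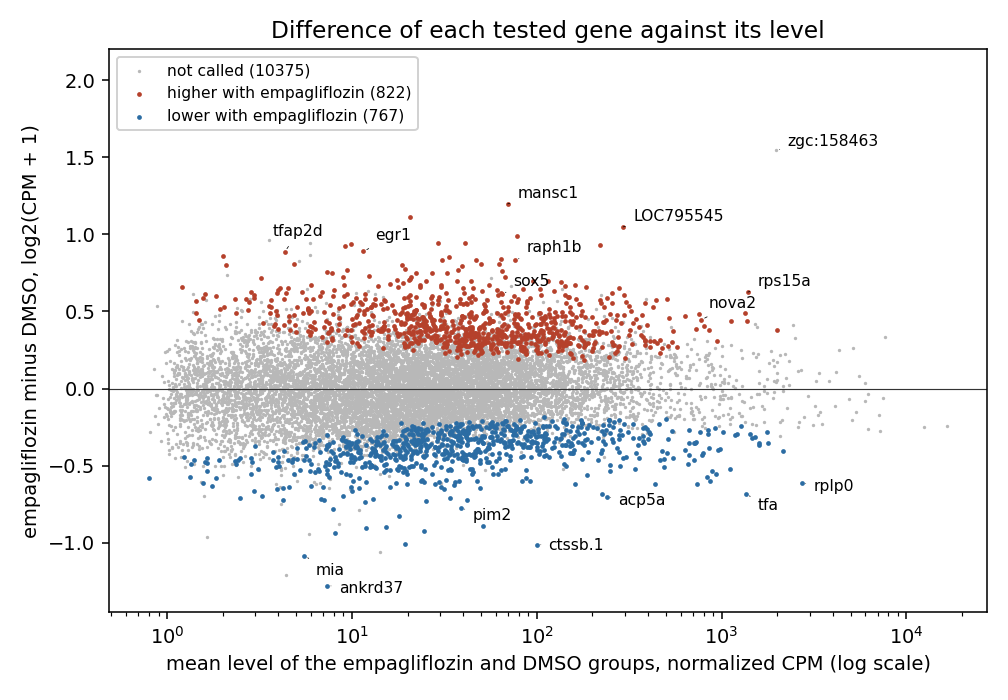
Each point is a tested gene, placed by its mean level in normalized CPM (log axis) and by the difference between empagliflozin and DMSO in log2(CPM + 1). The 822 called higher genes and 767 called lower genes form bands on both sides of 0, most within 1 log2 unit. zgc:158463 lies far above the rest at 1.55 but was not called.

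The called genes differed by function over the lists used here, which were chosen with earlier results of these data known. Transcript lengths were not used here, and whether the calls follow length was not tested. Lists were not set against genes of like level, although 330 of the 2991 most abundant genes were higher and 285 lower. Genes that set cell fate or regulate transcripts were more often among the higher ones: transcription factors, chromatin regulators and RNA-binding proteins. So were genes of axon guidance and of microtubules. Genes for making and clearing proteins, for copying DNA and for building nucleotides were more often among the lower ones. These are counts against the 6.87% and 6.41% of all tested genes, over 84 lists that share members (313 genes stood in 2 or more lists). The median difference over all tested genes was -0.0011. Those 2 shares hold for the fit with all libraries, and list counts with 1 library left out stand against other totals. Over all 11964 genes these were 1612 higher and 1421 lower without DMSO pool 4, and 285 and 255 without DMSO pool 1. They were 180 and 136 without DMSO pool 2, and 146 and 122 without DMSO pool 3.

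**Figure D2:**
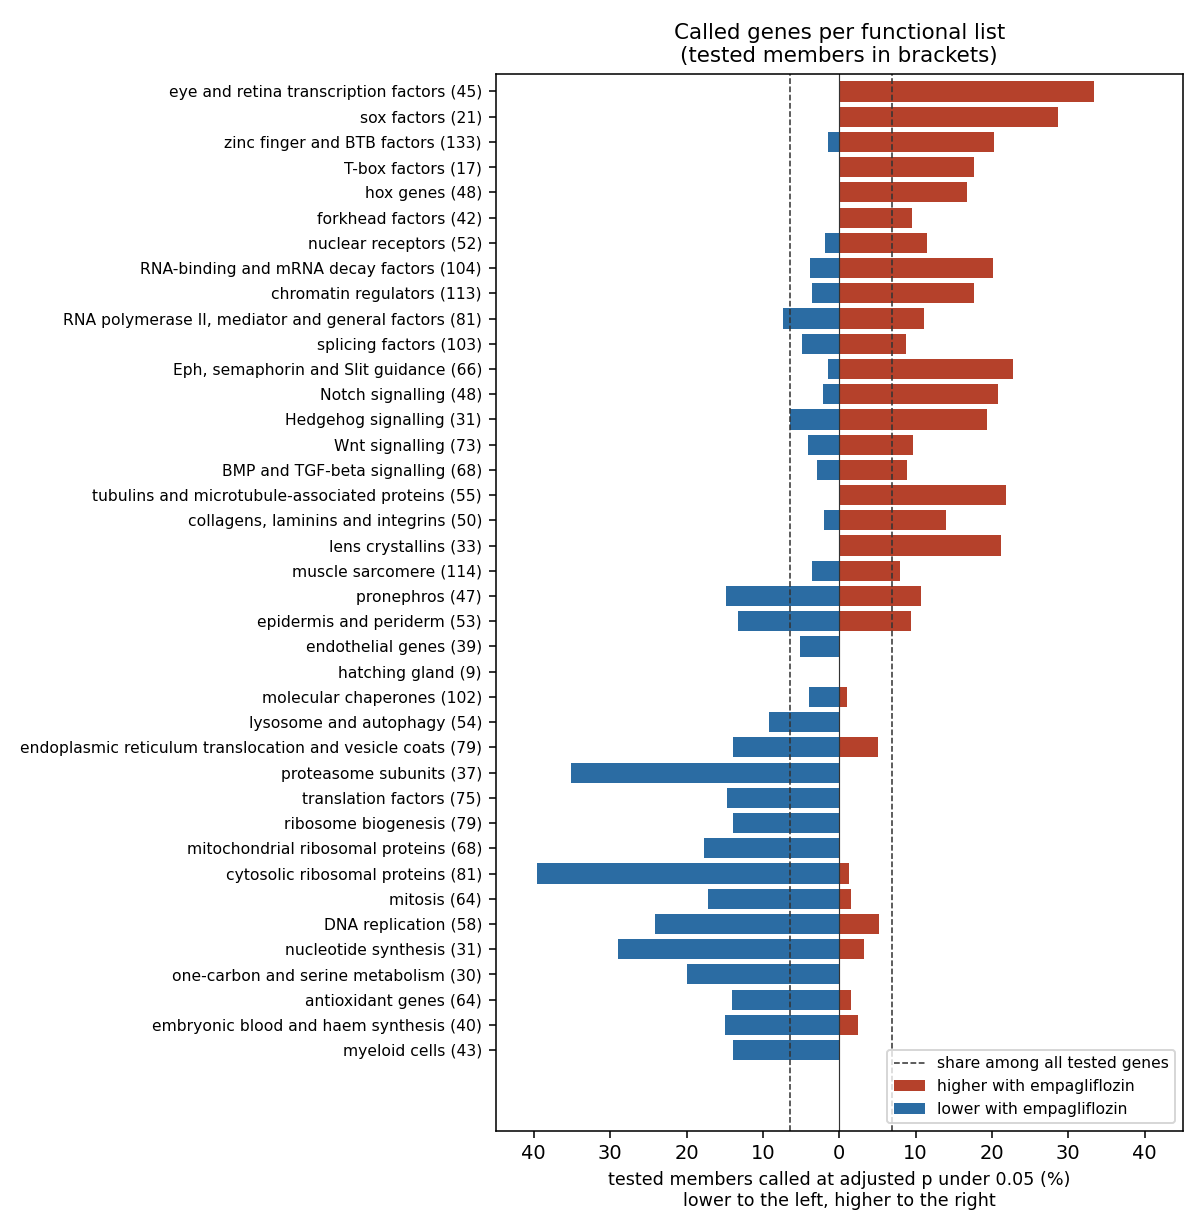
Bars give the percentage of the tested members of each functional list that were called lower (left) or higher (right) with empagliflozin; dashed lines mark the 6.41% and 6.87% of all tested genes. Lists of transcription factors reach up to 33.3% on the right, and the lists of proteasome subunits and cytosolic ribosomal proteins reach 35.1% and 39.5% on the left.

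Transcription factors bind DNA and set which genes a cell uses, and many of those below are used again and again in the embryo to pattern brain, eye and skeleton. The factor with the smallest p was tfap2d, an AP-2 family gene. It had 5.63, 5.82, 6.25 and 5.97 CPM in the empagliflozin pools and 2.75, 3.06, 2.43 and 2.75 CPM in the DMSO pools. All empagliflozin pools lay well above all DMSO pools, and DMSO pool 4 lay among the other DMSO pools. The log2 difference was 0.89 (95% interval 0.67 to 1.1, adjusted p = 0.00111).

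Zinc finger and BTB factors were the largest of these lists: 27 of 133 tested members rose and 2 fell, with a median difference of 0.12. klf12b, a Krüppel-like repressor, stood at 11.4, 11.7, 11.8 and 10.3 CPM with empagliflozin and at 6.72, 6.49, 6.92 and 6.84 CPM with DMSO. The groups were far apart and the DMSO pools lay close together (log2 difference 0.67, adjusted p = 0.00204). Of zinc finger genes outside the list, bcl11aa, which in mammals encodes a repressor of fetal globin and a factor in neurons, averaged 46.0 ± 3.75 CPM with empagliflozin and 28.1 ± 3.31 CPM with DMSO (SD, n = 4 each; adjusted p = 0.00267). plagl2, a zinc finger activator, also outside it, rose by 0.50 on the log2 scale. With DMSO pool 4 left out, 38 members of the list rose and 4 fell, and without DMSO pool 1, 9 rose and 1 fell.

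Among the sox factors 6 of 21 rose and 0 fell, with a median of 0.18; 2 to 9 rose when 1 library was left out, the most without DMSO pool 4. sox5, known in mammals for cartilage and neuron fate, had 79.2, 75.1, 77.9 and 80.9 CPM in the empagliflozin pools and 47.3, 48.6, 46.8 and 61.8 CPM in the DMSO pools. The highest DMSO value is that of pool 4, and it is still below every empagliflozin value (log2 difference 0.61, adjusted p = 0.00204). Its partner sox6 averaged 44.9 ± 1.78 CPM with empagliflozin and 33.01 ± 4.86 CPM with DMSO (n = 4 each; adjusted p = 0.0109).

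Of 45 transcription factors of eye and retina, 15 rose and 0 fell (33.3%), and the median was 0.29. pax6b, of the gene pair that directs eye formation, had 45.2, 45.6, 48.0 and 46.5 CPM with empagliflozin and 27.7, 29.3, 28.1 and 38.61 CPM with DMSO. DMSO pool 4 was again the highest of its group, between the other DMSO pools and empagliflozin (log2 difference 0.58, adjusted p = 0.00435). The eye field gene lhx2b rose by 0.49 (adjusted p = 0.00596). onecut1, which in mammals acts in liver, pancreas and retina, rose by 0.53 (adjusted p = 0.00349). In the fit without DMSO pool 4, 21 of the 45 rose, and in that without DMSO pool 3, 6 rose.

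The families that mark position and organ fields gave smaller shares. Of 48 hox genes, which mark position along the body axis, 8 rose and 0 fell, with a median of 0.10; hoxb5a rose by 0.50, a call that was lost in 6 of the fits that left out 1 library. Of 42 forkhead factors 4 rose (9.52%, near the 6.87% of all tested genes) and 0 fell. Among them foxp2, a factor of neurons, averaged 24.6 ± 2.898 CPM with empagliflozin and 14.2 ± 3.66 CPM with DMSO (n = 4 each; adjusted p = 0.00768). Of 17 T-box factors 3 rose and 0 fell, and tbx2b, of heart and eye, rose by 0.33 (adjusted p = 0.0185), a call that was lost without DMSO pool 3 and without empagliflozin pool 2. Of 52 nuclear receptors 6 rose and 1 fell. Over the fits that left out 1 library, 0 to 13 hox genes, 1 to 12 forkhead factors, 0 to 5 T-box factors and 1 to 10 nuclear receptors were higher.

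Chromatin regulators open or close DNA for transcription. Of 113 tested, 20 rose (17.7%) and 4 fell, with a median of 0.10; the counts were 35 and 10 without DMSO pool 4, and 7 and 1 without DMSO pool 2. Among them was ncor1, which encodes a corepressor of nuclear receptors. It had 246, 266, 279 and 276 CPM in the empagliflozin pools and 198, 185, 191 and 216 CPM in the DMSO pools, without overlap (log2 difference 0.43, adjusted p = 0.00362). bcor, a corepressor that works with Polycomb proteins, was not on the list and rose by 0.46 (adjusted p = 0.00349). The nucleosome remodelling subunit baz2a rose by 0.57. hmgb1a, an abundant DNA-bending protein, averaged 605 ± 30.6 CPM with empagliflozin and 406 ± 53.2 CPM with DMSO (n = 4 each; adjusted p = 0.00559).

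RNA-binding proteins and mRNA decay factors decide how long a transcript lasts and how it is spliced. Of 104 tested, 21 rose (20.2%) and 4 fell, with a median of 0.13. rc3h1, which encodes roquin, a protein that marks transcripts for decay, was not on the list and had 70.8, 75.8, 74.0 and 84.5 CPM with empagliflozin and 48.8, 48.4, 51.6 and 56.0 CPM with DMSO. The groups did not overlap, and DMSO pool 4 was 0.17 above the other DMSO pools (log2 difference 0.56, adjusted p = 0.00204). The nonsense-mediated decay gene upf3a rose by 0.52 (adjusted p = 0.0121). nova2, a splicing regulator of neurons, averaged 894 ± 43.8 CPM with empagliflozin and 658 ± 56.5 CPM with DMSO (n = 4 each; adjusted p = 0.00556). General splicing factors were mixed, with 9 of 103 higher and 5 lower, 33 higher and 10 lower without DMSO pool 4, and 0 to 33 higher over all fits that left out 1 library. The abundant splicing factor gene hnrnpaba was called at adjusted p = 0.0497 and lost that call in 15 of 27 alternatives.

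The summed level of the 104 RNA-binding and decay genes was 21808, 21810, 21717 and 21498 CPM in the empagliflozin pools and 18434, 18764, 18680 and 21473 CPM in the DMSO pools. DMSO pools 1 to 3 were all lower than empagliflozin, and DMSO pool 4 was at the empagliflozin level. Without DMSO pool 4, 36 of the 104 rose and 6 fell, and without DMSO pool 2, 4 rose.

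**Figure D3:**
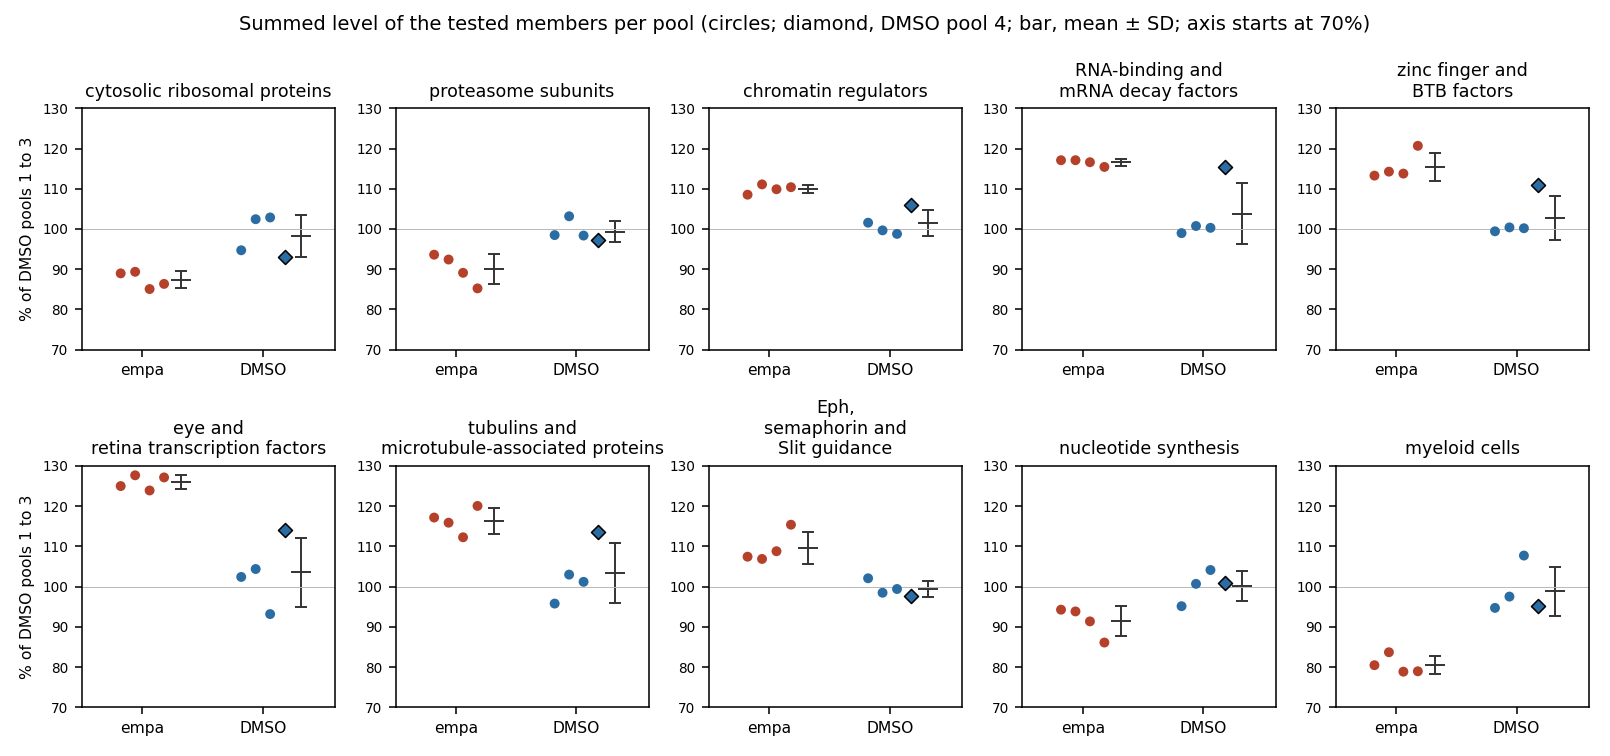
Each panel gives, for 1 list, the summed normalized CPM of its tested members in every pool as a percentage of the mean of DMSO pools 1 to 3, empagliflozin on the left. Circles are pools, the diamond is DMSO pool 4, and the bar is mean ± SD over 4 pools. DMSO pool 4 lies at the empagliflozin level for RNA-binding and decay factors, and among the other DMSO pools for nucleotide synthesis.

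Receptors and signals that steer cells and axons were also more often higher. Of 66 Eph, semaphorin and Slit guidance genes, 15 rose (22.7%) and 1 fell, with a median of 0.12. The secreted guidance cue sema3b averaged 40.5 ± 1.45 CPM with empagliflozin and 30.3 ± 2.905 CPM with DMSO (n = 4 each; adjusted p = 0.00890). robo3, a receptor of crossing axons, rose by 0.39, and the ephrin gene efnb3b by 0.38. Without DMSO pool 4, 14 rose and 1 fell, but 3 rose without DMSO pool 2 and 4 without DMSO pool 3. Its summed level was 3032, 3016, 3071 and 3257 CPM in the empagliflozin pools and 2881, 2780, 2806 and 2753 CPM in the DMSO pools, where pool 4 was the lowest.

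In Hedgehog signalling 6 of 31 rose and 2 fell, and the median difference was 0.02. Of the 31 genes, 18 had a higher mean with empagliflozin and 13 a lower one. When 1 library was left out, 2 to 9 rose and 0 to 4 fell. ptch1 encodes the receptor of Hedgehog and is itself switched on by the pathway. It had 164, 163, 169 and 161 CPM with empagliflozin and 119, 111, 108 and 137 CPM with DMSO, without overlap (log2 difference 0.47, adjusted p = 0.00349). gli3, a transcription factor of the same pathway, rose by 0.42 (adjusted p = 0.00504). In Notch signalling, which holds back neighbouring cells from the same fate, 10 of 48 rose and 1 fell, and the median was 0.02; with DMSO pool 4 left out, 11 rose and 6 fell, and with DMSO pool 2 left out, 1 rose and 1 fell. The receptor notch1b averaged 310 ± 21.7 CPM with empagliflozin and 227 ± 7.11 CPM with DMSO (n = 4 each; adjusted p = 0.00754), and the Notch inhibitor numb rose by 0.58, a call that was lost in 5 of the fits that left out 1 library. The member that fell was her2, a hairy-related repressor, at 26.9 ± 2.41 CPM with empagliflozin and 39.3 ± 3.63 CPM with DMSO (adjusted p = 0.00550).

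Of 73 Wnt genes 7 rose (2 to 11 with 1 library left out) and 3 fell, a share near that of all genes. The coreceptor lrp5 rose by 0.49 (adjusted p = 0.00349) and tcf7l2, which carries the signal to DNA, by 0.69 (adjusted p = 0.00852). The BMP receptor gene bmpr2a rose by 0.44. BMP and TGF-beta genes gave 6 higher of 68 (1 to 12 with 1 library left out) and 2 lower (1 to 3). akt1, a kinase downstream of insulin receptors, averaged 35.5 ± 0.910 CPM with empagliflozin and 25.1 ± 3.82 CPM with DMSO (n = 4 each, limma adjusted p = 0.0121). In that pathway 5 of 49 genes rose (1 to 6 with 1 library left out) and 1 fell (0 to 3).

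Genes of microtubules and of the cell edge followed. Of 55 tubulins and microtubule-associated proteins 12 rose (21.8%) and 0 fell, with a median of 0.15. Of these, 16 rose and 1 fell without DMSO pool 4, 1 rose without empagliflozin pool 2, and no member was called without DMSO pool 3. The tubulin gene tubb5 had 802, 748, 682 and 688 CPM with empagliflozin and 504, 519, 446 and 654 CPM with DMSO. DMSO pool 4 was close below the lowest empagliflozin pools (log2 difference 0.47, adjusted p = 0.0211), and the call was lost in 5 of the fits that left out 1 library. dclk1b and map7d2a, which encode microtubule-binding proteins, rose by 0.60 and 0.53, and each lost its call in 3 such fits. raph1b, a regulator of actin at the cell edge, rose by 0.83 (adjusted p = 0.00662), the focal adhesion gene zyx by 0.70 and abi1b, of the WAVE complex, by 0.57. In DMSO pool 4 raph1b and zyx both stood 0.59 above the other DMSO pools, and abi1b 0.04.

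Among structural genes, 7 of 50 collagens, laminins and integrins rose (2 to 13 with 1 library left out) and 1 fell. The basement membrane collagen gene col18a1 averaged 600.3 ± 20.6 CPM with empagliflozin and 439 ± 57.7 CPM with DMSO (n = 4 each; adjusted p = 0.00998). Of 33 lens crystallins, the transparent proteins that fill lens fibre cells, 7 rose and 0 fell, with a median of 0.25, and 3 to 10 rose when 1 library was left out. crygm2d12 had 30.4, 28.9, 28.9 and 24.03 CPM with empagliflozin and 17.2, 18.9, 11.3 and 18.7 CPM with DMSO, without overlap (log2 difference 0.75, adjusted p = 0.0105). crygm2d8 rose by 0.65. The crygm2d genes are close copies of each other, so that reads may be shared between them, and single members are uncertain.

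Ribosomal proteins were the list with the largest share of lower genes. Of 81 cytosolic ribosomal protein genes, all of which passed the level limit, 32 fell (39.5%) and 1 rose, and the median difference was -0.20. Their summed level was 89074, 89465, 85177 and 86455 CPM in the empagliflozin pools and 94820, 102552, 102986 and 93173 CPM in the DMSO pools. The groups did not overlap, and DMSO pool 4 was the lowest of its group; the mean changed by -11.0%. rps16 had 597, 566, 524 and 516 CPM with empagliflozin and 737, 827, 837 and 692 CPM with DMSO (log2 difference -0.49, adjusted p = 0.00435), with no overlap.

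The ribosomal genes did not move as one block. rplp0, of the ribosomal stalk, averaged 2131 ± 75.1 CPM with empagliflozin and 3304 ± 603 CPM with DMSO (n = 4 each; adjusted p = 0.0138). The only member that rose, rps15a, had 1695, 1801, 1683 and 1510 CPM with empagliflozin and 969, 973, 977 and 1483 CPM with DMSO, with DMSO pool 4 just below the lowest empagliflozin pool (log2 difference 0.63, adjusted p = 0.0332). Its call was lost in 9 of 27 alternatives. Leaving out DMSO pool 4, 41 of the 81 fell and 3 rose. Leaving out DMSO pool 2 or DMSO pool 3 left 1 lower call each, where all 11964 tested genes gave 136 and 122. In those 2 fits the share of lower ribosomal genes was thus near that of all tested genes. The median difference stayed between -0.23 and -0.16 under all alternatives. The call of rplp0 was lost without DMSO pool 2 and without DMSO pool 3.

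Other parts of the protein factory fell less often. Of 79 ribosome biogenesis genes 11 fell (13.9%) and 0 rose; nip7 and wdr12, which mature the large subunit, fell by 0.50 and 0.40 on the log2 scale. In this list the median of DMSO pool 4 was 0.16 above the other DMSO pools, away from empagliflozin, and without it 14 fell and 6 rose; 1 fell without DMSO pool 3. The summed level of the list overlapped, at 5747 to 6425 CPM with empagliflozin and 5766 to 6435 CPM in DMSO pools 1 to 3. DMSO pool 4 had 7129 CPM. The call of wdr12 was lost in 3 of the fits that left out 1 library. Of 68 mitochondrial ribosomal proteins 12 fell and 0 rose, among them mrps10 at 15.9 ± 0.691 CPM with empagliflozin and 22.2 ± 2.21 CPM with DMSO (n = 4 each; adjusted p = 0.00768). Of 75 translation factors 11 fell and 0 rose, and eif3ha, of the initiation factor that loads the small subunit, fell by 0.37 (adjusted p = 0.00862). With DMSO pool 4 left out, 13 mitochondrial ribosomal proteins fell and 3 rose, while translation factors were called in both directions, 15 lower and 10 higher. Without DMSO pool 2, 2 mitochondrial ribosomal proteins and 1 translation factor fell.

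The proteasome takes apart proteins tagged with ubiquitin. Of 37 proteasome subunits tested, 13 fell (35.1%) and 0 rose, and the median difference was -0.16; 16 fell and 1 rose without DMSO pool 4, and 1 fell without DMSO pool 2. psma6a of the core ring had 73.9, 67.4, 68.9 and 66.1 CPM with empagliflozin and 92.6, 91.1, 89.8 and 79.9 CPM with DMSO, without overlap (log2 difference -0.35, adjusted p = 0.0125). The catalytic subunit gene psmb7 averaged 126 ± 10.1 CPM with empagliflozin and 162 ± 16.5 CPM with DMSO (n = 4 each; adjusted p = 0.0131), a call that was lost without DMSO pool 2. The summed proteasome level was 4653, 4593, 4429 and 4237 CPM in the empagliflozin pools and 4895, 5128, 4889 and 4832 CPM in the DMSO pools, with DMSO pool 4 only slightly below the others. By contrast, genes that attach or remove ubiquitin gave 3 higher and 7 lower of 113, and molecular chaperones 1 higher and 4 lower of 102. Each of these was below the share of all genes. Without DMSO pool 4 they gave 18 and 20, and 14 and 9, where all 11964 tested genes gave 1612 and 1421.

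Genes of protein export and of the lysosome fell in smaller shares, with some large single differences. Of 79 genes for entry into the endoplasmic reticulum and for vesicle coats, 11 fell and 4 rose. ssr4 and tram1, which help new chains into the reticulum, fell by 0.62 and 0.43 (adjusted p = 0.00552 and 0.00655). Of 54 lysosome and autophagy genes 5 fell (9.26%, near the 6.41% of all tested genes) and 0 rose. In the fit without DMSO pool 4, 18 export genes fell and 10 rose, and 12 lysosome genes fell and 1 rose; without DMSO pool 3, 3 of each list fell. ctssb.1, one of a pair of cathepsin S genes that may share reads, had 77.8, 60.5, 59.7 and 63.6 CPM with empagliflozin and 97.1, 128, 173 and 142 CPM with DMSO. The DMSO pools were widely spread but all above the empagliflozin pools (log2 difference -1.01, adjusted p = 0.00234). npc2, which carries cholesterol out of the lysosome, averaged 258 ± 16.4 CPM with empagliflozin and 350.3 ± 18.6 CPM with DMSO (n = 4 each; adjusted p = 0.00435).

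**Figure D4:**
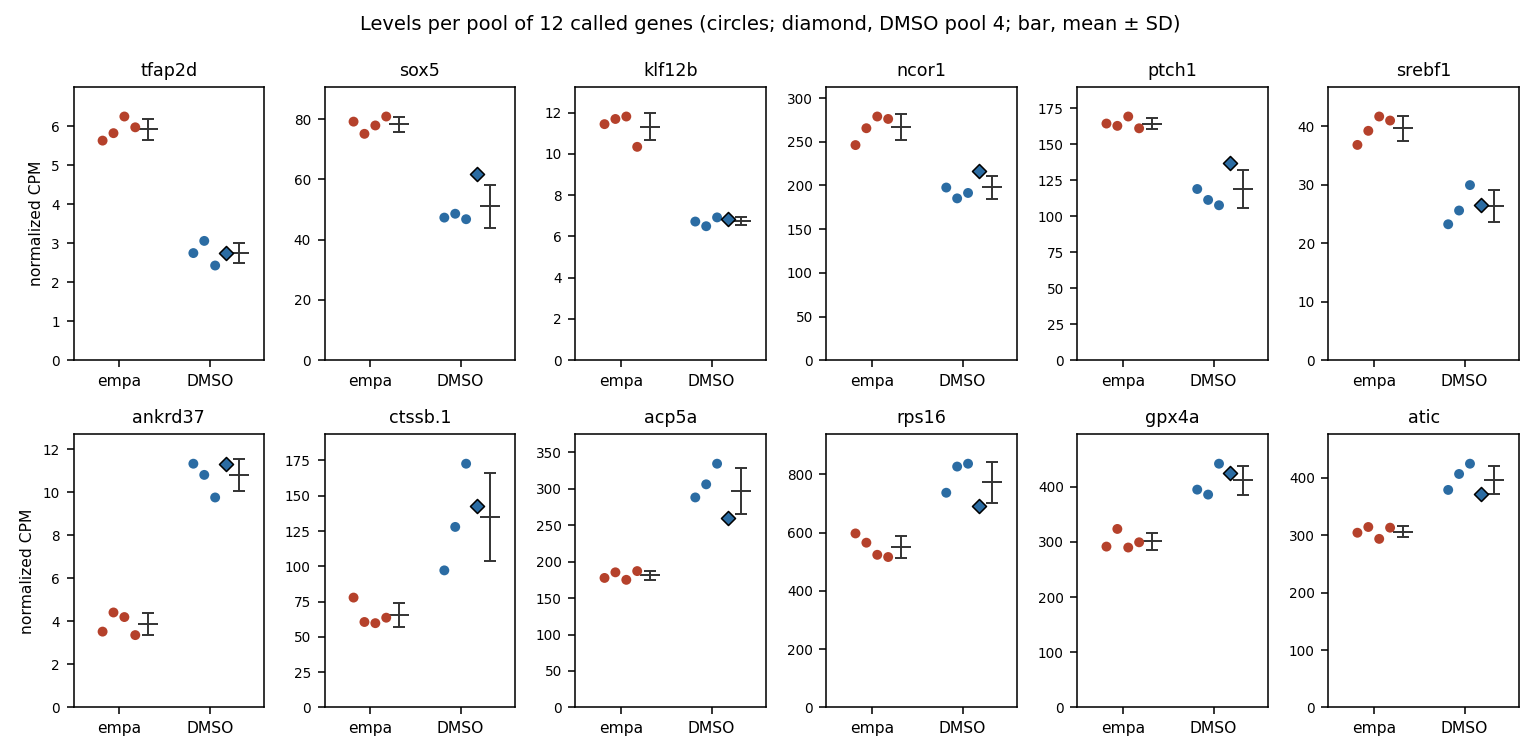
Normalized CPM in every pool for 12 called genes, empagliflozin on the left of each panel and DMSO on the right, on axes that start at 0. Circles are pools, the diamond is DMSO pool 4, and the bar is mean ± SD over 4 pools. In none of these 12 picked genes do the groups overlap, as in 79.2% of all called genes and 19.1% of all tested genes. In sox5, ncor1, ptch1, acp5a, rps16 and atic the diamond is the DMSO value nearest to empagliflozin.

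Genes for copying and dividing the genome fell in part. Of 58 DNA replication genes 14 fell (24.1%) and 3 rose, and the median difference was -0.10; the counts were 15 and 7 without DMSO pool 4, and 2 and 0 without DMSO pool 2 or 3. orc6, of the complex that marks replication origins, had 18.99, 18.77, 20.53 and 19.01 CPM with empagliflozin and 29.3, 29.9, 28.9 and 24.1 CPM with DMSO, without overlap (log2 difference -0.51, adjusted p = 0.00768). orc4, of the same complex, fell by 0.62, a call lost in 3 of the fits that left out 1 library, and pold3, a subunit of a replicative polymerase, by 0.47. In DMSO pool 4 orc4 stood at -0.60 from the other DMSO pools and pold3 at -0.05. Of 64 mitosis genes 11 fell (17.2%) and 1 rose. The cyclin gene ccnb1 averaged 144 ± 4.64 CPM with empagliflozin and 178 ± 12.2 CPM with DMSO (n = 4 each; adjusted p = 0.00998), and anapc16, of the complex that destroys cyclins, fell by 0.82. Without DMSO pool 4, 18 mitosis genes fell and 3 rose, and without DMSO pool 2 or 3, 2 fell.

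Nucleotide synthesis supplies the building blocks of DNA and RNA. Of 31 genes 9 fell (29.0%) and 1 rose, the median difference being -0.15. Without DMSO pool 4 again 9 were lower, and 2 were higher; without DMSO pool 3, 2 were lower. atic, which closes the purine ring, had 304, 314, 294 and 313 CPM with empagliflozin and 379, 407, 425 and 372 CPM with DMSO, without overlap (log2 difference -0.37, adjusted p = 0.00764). paics, an earlier step of the same route, averaged 567 ± 32.2 CPM with empagliflozin and 768 ± 76.5 CPM with DMSO (n = 4 each; adjusted p = 0.00808). The one-carbon pathway that feeds purine synthesis had 6 of 30 lower and 0 higher, and 3 to 8 were lower when 1 library was left out. Its members shmt1 and mthfd1b fell by 0.42 and 0.56 (mthfd1b lost its call without DMSO pool 2 or 3), and cbsa, which draws homocysteine toward cysteine, by 0.70 (adjusted p = 0.00890).

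Further metabolic genes fell singly. gpx4a, which protects membranes from lipid peroxides, had 292, 324, 290 and 299 CPM with empagliflozin and 395, 386, 442 and 424 CPM with DMSO. The groups were apart and DMSO pool 4 lay among the other DMSO pools (log2 difference -0.45, adjusted p = 0.00349). glrx5, needed for iron-sulfur clusters, fell by 0.71 (adjusted p = 0.00435). These stood among 9 of 64 antioxidant genes that fell and 1 that rose (2 to 17 that fell with 1 library left out). hmbsa, of haem synthesis, fell by 0.44 (adjusted p = 0.00550), among 6 of 40 genes of embryonic blood and haem that fell (1 to 8 with 1 library left out) and 1 that rose. pck2, which encodes a mitochondrial enzyme that makes phosphoenolpyruvate, fell by 0.33. slc3a2a, the shared chain of several amino acid carriers, fell by 0.60 (adjusted p = 0.00435).

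Lipid genes went both ways. srebf1, which encodes a master regulator of lipid synthesis, had 36.8, 39.2, 41.7 and 40.99 CPM with empagliflozin and 23.2, 25.6, 29.9 and 26.6 CPM with DMSO, without overlap (log2 difference 0.58, adjusted p = 0.00331). DMSO pool 4 was 0.03 from the other DMSO pools. Its relative srebf2 rose by 0.67 with DMSO pool 4 at 0.63 above the others, and lost its call in 4 fits that left out 1 library. Of 29 genes of cholesterol synthesis and its control 3 rose and 3 fell (1 to 4 and 0 to 7 with 1 library left out). Of 44 lipoprotein and lipid uptake genes 7 fell and 1 rose (4 to 11 lower with 1 library left out), among them mtp, which loads lipid onto lipoproteins, at 30.1 ± 2.57 CPM with empagliflozin and 46.1 ± 4.80 CPM with DMSO (n = 4 each; adjusted p = 0.00768). cd36, a fatty acid receptor, and the iron carrier tfa of the yolk layer fell by 0.94 and 0.69.

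The fall with the smallest p was in ankrd37, a hypoxia-inducible gene, with 3.52, 4.41, 4.20 and 3.36 CPM in the empagliflozin pools and 11.3, 10.8, 9.76 and 11.3 CPM in the DMSO pools. The groups lay far apart and DMSO pool 4 was within its group (log2 difference -1.28, adjusted p = 0.000341). Of the 38 hypoxia-inducible genes tested, ankrd37 included, 2 fell and 3 rose, near the shares of all genes; 23 had a lower mean with empagliflozin, the median difference was -0.03, and without DMSO pool 4, 6 fell and 4 rose. acp5a, the acid phosphatase of bone-resorbing cells and macrophages, had 178, 185, 175 and 187 CPM with empagliflozin and 288, 306, 334 and 260 CPM with DMSO (log2 difference -0.70, adjusted p = 0.00204), without overlap. The survival kinase gene pim2 fell by 0.78 and dpp4, which encodes a peptidase that trims incretin hormones in mammals, by 0.54 (adjusted p = 0.00279 and 0.00435). Of 43 myeloid genes 6 fell and 0 rose (median difference -0.15; 1 to 7 lower with 1 library left out), and the lysozyme gene lyz was among them with a log2 difference of -0.48, a call that was lost without DMSO pool 1, 2 or 3. The summed myeloid level was 572, 595, 561 and 561 CPM with empagliflozin and 673, 693, 766 and 677 CPM with DMSO, with no overlap. The immediate-early gene egr1 rose by 0.89 (limma adjusted p = 0.00736), among 3 of 41 such genes that rose and 3 that fell. Those 2 counts ran from 1 to 6 and from 0 to 4 when 1 library was left out.

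Several tissues gave calls in both directions or hardly any. Of 114 sarcomere genes 9 rose (1 to 20 with 1 library left out) and 4 fell. The cardiac myosin light chain gene myl7 averaged 40.5 ± 2.51 CPM with empagliflozin and 51.1 ± 4.02 CPM with DMSO (n = 4 each; adjusted p = 0.0143), a call that was lost without DMSO pool 3, while among 34 cardiac genes 5 rose and 2 fell. The cardiac counts were 0 to 8 higher and 0 to 3 lower when 1 library was left out. Of 53 epidermis genes 5 rose and 7 fell (22.6% called, against 13.3% of all tested genes). With 1 library left out, 1 to 7 of them rose and 0 to 10 fell. The annexin gene anxa1c fell by 0.51, a call that was lost without DMSO pool 2 or 3. Of 47 genes of the pronephros, the kidney of the embryo, 5 rose (10.6%) and 7 fell (14.9%). That is 25.5% called, also above the 13.3% of all tested genes. With 1 library left out, 1 to 9 of them rose and 1 to 11 fell. Of 39 endothelial genes 2 fell and 0 rose, and of 9 hatching gland genes 0 rose and 0 fell by the limma test. None of the 9 had an unadjusted p under 0.05, and edgeR called 0. Without DMSO pool 4, 5 endothelial genes rose and 4 fell, and 0 hatching gland genes rose and 2 fell. All 11964 tested genes then gave 1612 higher and 1421 lower.

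In the authors' full comparison of 11969 genes, made from these same libraries, 1901 had a false discovery rate under 0.05. Of those, 1398 were among the 1589 genes called here, with direction not compared. The authors' deposited filtered table held 8 genes, chosen from these same libraries. ankrd37, mia, ctssb.1 and apip fell here, and mansc1, LOC795545 and zgc:173593 rose. mia, a secreted cartilage protein gene, averaged 3.19 ± 0.877 CPM with empagliflozin and 7.87 ± 1.79 CPM with DMSO, and apip, of the methionine salvage pathway, averaged 12.6 ± 3.005 and 26.4 ± 6.96 CPM (n = 4 each; adjusted p = 0.00349 and 0.0176). mansc1 had 98.2, 112, 87.2 and 82.6 CPM with empagliflozin and 28.2, 36.4, 34.2 and 77.1 CPM with DMSO, with DMSO pool 4 next to the empagliflozin pools, and its call was lost in 9 of 27 alternatives. zgc:173593 lost its call in 10, apip in 3 and LOC795545 in 2. The eighth gene, zgc:158463, had 7173, 3431, 923 and 1114 CPM with empagliflozin and 818, 854, 726 and 680.0 CPM with DMSO. All empagliflozin pools were higher, but they were spread widely and the gene was not called (log2 difference 1.55, adjusted p = 0.0992).

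At the same dose and hours, canagliflozin, a related SGLT2 inhibitor, was set beside empagliflozin for 4 of the genes above, chosen after their values were seen. One canagliflozin library, pool 4, stood apart: on the main axis of variation among all 12 libraries it scored 5.95, against -17.9 to -13.0 in the other canagliflozin pools, with the empagliflozin pools at 15.6 to 18.6. Its part in these values was not tested, and each difference is given also without it. ankrd37 averaged 3.87 ± 0.511 CPM with empagliflozin, 12.1 ± 2.30 CPM with canagliflozin and 10.8 ± 0.734 CPM with DMSO (n = 4 each), and the log2 difference between empagliflozin and canagliflozin was -1.41 (limma adjusted p = 4.28e-05), and -1.36 without canagliflozin pool 4. tfap2d averaged 5.92 ± 0.261 CPM with empagliflozin, 2.16 ± 0.158 CPM with canagliflozin and 2.75 ± 0.258 CPM with DMSO, and empagliflozin differed from canagliflozin by 1.13 (adjusted p = 4.28e-05), and by 1.15 without that pool. For srebf2 that difference was 0.29 and did not pass (95% interval -0.04 to 0.63, adjusted p = 0.182). srebf2 had 121, 119, 137 and 196 CPM in the canagliflozin pools, the highest in pool 4, and without that pool the difference was 0.45 and passed (95% interval 0.17 to 0.73, adjusted p = 0.0143). For lyz it was -0.29 (interval -0.53 to -0.06, unadjusted) and did not pass (limma adjusted p = 0.0618), while without canagliflozin pool 4 it was -0.35 and passed (interval -0.59 to -0.12, adjusted p = 0.0208).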

How the data were processed

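RNA of 12 pools of 5 embryos was sequenced as stranded 50 bp pairs, per the labels' protocols; danRer10, FastQC and R 3.6.1 stand in the submitters' processing notes, with aligner and counter not given in the sources used here. In the authors' normalized table each value is a signal for 1 gene in 1 library. It proved to be CPM scaled by TMM. In each library 100% of values came out as whole reads within 0.001. The scaling factor implied by each column matched the TMM factor computed from those reads (for empagliflozin pool 1, 0.989035 in both). The authors' comparison table holds log2 fold changes and p-values with false discovery rates; only the names in its filtered version are used here.

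The values were tested on log2(CPM + 1) with limma 3.58.1 in R 4.3.3 (lmFit, eBayes with a variance trend), with 1 mean for each of 3 groups; the tests were two-sided, and p-values were adjusted by Benjamini-Hochberg across all 11964 genes that averaged at least 1 CPM. The difference is empagliflozin minus DMSO, and a pseudocount of 1 understates changes of low genes. Recovered reads were tested with edgeR 4.0.16 and DESeq2 1.42.0 as alternatives. The fit was tested on simulated data in which no library stood apart from its group. That test does not cover a library such as DMSO pool 4. Lists are described by counts and medians, with no test of the list. The members and the 84 gene lists were chosen with earlier results of these data known. Named genes were those called with the smallest p (15 per direction), the largest CPM differences (12 per direction), up to 4 called members per list and the authors' filtered genes; not every one is reported, and slc5a2 stands outside this rule. Pools are replicates by label only: no clutch, day or lane is given, so p-values measure the spread between pools. No 2 libraries of a group were copies (chi-square per degree of freedom at least 8.27).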

Additional observations from a re-analysis of the deposited data

Results flagged for a closer look

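Among 4 pools of a group, a pool is named here where its gap to the nearest other pool as a share of the group's range passed Dixon's 95% critical value. Of 196 groups looked at (88 genes and 10 list sums, each with empagliflozin and with DMSO), 18 met this, and chance alone gives about 1 in 20. Of the 10 in DMSO, 9 were in pool 4. That pool was the highest for sox5 (share of the range 0.879), pax6b (0.85), lrp5 (0.851), akt1 (0.877), rps15a (0.984) and mansc1 (0.832), and the lowest for orc6 (0.8292). It was also the highest for the summed levels of RNA-binding and decay factors (0.892) and of zinc finger and BTB factors (0.915), where it had 5405 CPM against 4850 to 4897 CPM in the other DMSO pools. DMSO pool 3 was the highest for her2 (0.87), at 44.7 CPM against 37.0 to 37.99 CPM in the others.

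Among the empagliflozin pools no single library stood out in this way. Pool 1 was the lowest for notch1b (0.886) and raph1b (0.921) and the highest for eif3ha (0.887). Pool 3 was the highest for orc6 (0.86). Pool 4 was the highest for efnb3b (0.878) and for the sum of zinc finger and BTB factors (0.867), and the lowest for wdr12 (0.932) and shmt1 (0.857).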

How the results depend on the processing

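The counts of 822 higher and 767 lower genes were within 1.5 times under pseudocounts of 0.1 and 5, a minimum of 5 CPM or none, the 2 groups alone, robust variance, no variance trend, median centring, quantile normalization, edgeR (716 and 753) and DESeq2 (1002 and 1098). They moved to 2358 and 2118 with sample weights, 1481 and 1389 at an adjusted p of 0.1, and 2259 and 1987 without DMSO control replicate 4 and canagliflozin replicate 4 together. Leaving out 1 library at a time gave 146 to 1612 higher and 122 to 1421 lower genes; both lowest counts came without DMSO replicate 3 and both highest without DMSO replicate 4, and the count without canagliflozin replicate 4 was 1479 and 1229. No called gene changed its sign in any of these fits. Of all 1589 called genes 229 kept their call in every alternative fit that tested them, 126 higher and 103 lower. The 87 called genes described here were chosen mostly for small p or large differences. Of these, 66 kept their call in all of the 27 alternatives that tested them. Of the other 21, 17 lost it only where a library was left out. A gene that an alternative did not test, such as tfap2d under a minimum of 5 CPM, was not counted as lost there. At an adjusted p of 0.1 no call can be lost. Deviations of same-numbered empagliflozin and DMSO pools correlated at -0.00644, -0.038, 0.256 and -0.101, and those of differently numbered ones at -0.16 to 0.14. Canagliflozin pools were not part of this check. DMSO pool 4 and canagliflozin pool 4, which share a number, both lay toward empagliflozin on the main axis among all 12 libraries (7.52 and 5.95). Whether pools of 1 number belong together cannot be told from these values. With the replicate number as a block 1229 genes were higher and 1040 lower. Depth limits low genes: 1 read is 0.0363 to 0.0584 CPM in the compared libraries. The difference between empagliflozin and canagliflozin was tested without canagliflozin replicate 4 as an alternative chosen after seeing the data; srebf2 (0.45) and lyz (-0.35) passed the threshold in that fit.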

Other observations

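Of 41 cytochrome P450 genes, which oxidize drugs, steroids and lipids, 2 fell and 0 rose, while the median difference was -0.21, and between -0.25 and -0.11 under all alternatives. Of 68 voltage-gated ion channel genes 4 rose and 2 fell, with a median of 0.16, and 0.09 without DMSO pool 4; their summed levels overlapped, at 613 to 691 CPM with empagliflozin and 584 to 677 CPM with DMSO. Of 44 wound and inflammation genes 1 rose and 0 fell. Their median was -0.16, but 0.04 without DMSO pool 3, and the summed levels overlapped. The median over all tested genes was -0.0011, and none of these lists was tested as a whole.

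Organ lists that the text above leaves out went both ways in their calls. Of 39 secreted plasma protein genes of yolk layer and liver 0 rose and 5 fell (2 to 6 lower with 1 library left out). Of 26 notochord and axial genes 1 rose and 4 fell (0 to 5 higher and 0 to 5 lower). Yet 16 of the 26 had a higher mean with empagliflozin, and their median was 0.08. Calls in other lists leaned upward. The 41 genes of endoderm, pancreas and gut had 8 higher and 0 lower (3 to 10 and 0 to 1 with 1 library left out). The 48 genes of the ear vesicle and lateral line had 6 higher and 0 lower (1 to 12 and 0 to 3). Some factors, such as pax6b and onecut1, stand in more than 1 list. Of 39 nuclear pore and transport genes 8 fell and 0 rose, although their median was -0.02. Their mean summed level was 5.59% higher with empagliflozin. Leaving out 1 library gave 0 to 10 lower and 0 to 5 higher. Amino acid and neurotransmitter carriers were called in both directions, with 5 of 44 higher and 6 lower (1 to 6 and 3 to 8 with 1 library left out). So were the phosphatases PP1 and PP2A, with 9 of 59 higher (15.3%) and 7 lower (11.9%), against 6.87% and 6.41% of all tested genes. When 1 library was left out, 0 to 14 phosphatases rose and 0 to 9 fell, and 0 rose without DMSO pool 1, 2 or 3.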
